A study of Mus musculus with 90 samples.

Results

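The 7 genes described here belong to cholesterol synthesis and its control in the mouse liver: *Srebf2* (ENSMUSG00000022463), *Insig1* (ENSMUSG00000045294), *Insig2* (ENSMUSG00000003721), *Hmgcs1* (ENSMUSG00000093930), *Idi1* (ENSMUSG00000058258), *Sqle* (ENSMUSG00000022351) and *Lss* (ENSMUSG00000033105). They were chosen by symbol, and each symbol matched 1 Ensembl gene ID in the 4 tables of Salmon counts, which makes 7 of 27654 gene IDs. All 7 passed the filter on low counts in every comparison. *Srebf2* encodes the precursor of the transcription factor SREBP-2, *Insig1* and *Insig2* encode membrane proteins that control it, and the other 4 encode enzymes of the synthesis pathway.

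As background, cells adjust cholesterol synthesis to the sterol content of the endoplasmic reticulum membrane. When sterols are scarce, the SREBP-2 precursor travels with its escort SCAP to the Golgi apparatus, is cleaved there, and its released part turns on genes for cholesterol synthesis and lipoprotein uptake, whereas sterols make INSIG proteins hold the precursor back. The liver makes much of the cholesterol of the body, and its synthesis follows meals and the time of day.

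PolyA RNA of whole livers of male C57BL/6J mice was sequenced, with 1 library per mouse and 90 libraries in 28 groups. The question was how caloric restriction and the glucocorticoid receptor (GR, encoded by *Nr3c1*) act on the liver over the day. WT mice (GRfl/fl, with both receptor alleles floxed and no Cre) were compared with GRLKO mice (GRfl/fl x Alb-Cre, where the albumin promoter drives Cre). The paper describes GRLKO as a hepatocyte-specific knockout. Mice were 12 weeks old at the start and ate chow, with food given at ZT12 (Zeitgeber time, hours after lights on; the dark phase starts at ZT12). Restricted mice were brought in steps to 40% less food, and control mice had free access to food, limited to the night in the last week.

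The time series holds WT and GRLKO livers at ZT0, ZT4, ZT8, ZT12, ZT16 and ZT20: 36 libraries on caloric restriction, 3 per group, and 42 on the control diet. On the control diet, WT groups hold 3 livers at ZT0 and ZT4 and 4 at the other times, and GRLKO groups hold 4 at ZT8 and ZT12 and 3 at the other times. A separate diet experiment compared 3 control and 3 restricted livers of mice labelled WT at ZT12, and a corticosterone experiment compared 3 WT livers after 7 days of corticosterone (CORT, 5 mg/kg by intraperitoneal injection) with 3 after vehicle, both under night-restricted feeding and at ZT12. The 12 mice of these experiments are labelled WT, not GRfl/fl, so their genotype may differ from that of the time-series WT mice. The controls of the diet experiment are labelled as night-restricted, while their titles read AL. In the time series each diet came in a table of its own, so diet and library batch cannot be told apart there.

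Total estimated counts per library ranged from 14235473 to 20788575 (median 17386700) on caloric restriction, 10057544 to 17089004 (median 13427104) on the control diet, 36442195 to 39492146 (median 37407547) in the diet experiment and 13739631 to 16077943 (median 14431388) in the corticosterone experiment. Levels are CPM, the counts of a gene relative to all counts of its library, scaled by TMM, a normalisation that sets libraries on a shared scale. That scale was set separately for the time series, the diet experiment and the corticosterone experiment. A gene counts as called, and is said to rise or fall, where its Benjamini-Hochberg adjusted p over all genes tested is under 0.05, in the edgeR quasi-likelihood F test unless another test is named. CPM do not allow for transcript length, so levels are compared between groups and not between genes.

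The targeted gene checks the labels. *Nr3c1* lay at 16.1, 23.7 and 32.0 CPM (lowest, median, highest) in the 38 GRLKO livers, at 69.9, 89.1 and 119 in the 40 WT livers of the time series, and at 61.7, 84.1 and 95.7 in the 12 livers of the other experiments. Every GRLKO liver lay below every WT liver, with no library on the wrong side of its label. Its log2 fold change between genotypes ran from -1.70 to -2.06 over the 12 comparisons, each called by edgeR. Neither diet (-0.08, edgeR adjusted p = 0.317) nor CORT (-0.06, edgeR adjusted p = 0.808) gave a called difference in *Nr3c1*.

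Cells other than hepatocytes were followed with lists of markers: hepatocytes (7 of 7 genes, most abundant *Alb*), Kupffer and myeloid cells (6 of 6, *Clec4f*), endothelial cells (5 of 5, *Kdr*), stellate cells (5 of 5, *Dcn*), cholangiocytes (5 of 5, *Spp1*), lymphocytes (6 of 6, *Cd79a*), neutrophils (4 of 4, *S100a9*), adipocytes (3 of 4, *Cfd*, with *Plin1* at 0 in every library), erythrocytes (3 of 3, *Hbb-bs*) and exocrine pancreas (5 of 5, *Amy2a5*). Summed hepatocyte markers were between 72359.7 and 178502 CPM in every library, and no marker of hepatocytes, Kupffer, endothelial or stellate cells or erythrocytes was at 0 in any library. Lists whose sums did not overlap between groups are given beside the calls of the genes at that time. In comparisons without a call, endothelial markers at ZT4 and adipocyte markers at ZT20 were higher in restricted GRLKO than restricted WT livers, without overlap. On the control diet, hepatocyte and cholangiocyte markers were lower in GRLKO livers at ZT4 and neutrophil markers higher at ZT12, without overlap. Adipocyte markers were higher there at ZT0, ZT4, ZT12 and ZT20, also without overlap. Of the 4 adipocyte genes, 3 were at 0 in every control-diet GRLKO liver at ZT0 and ZT20, and 2 at ZT4 and ZT12. The part of these markers was not tested.

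The diet experiment asks what caloric restriction does to the liver at ZT12, the end of the daily fast. Of the 7 genes, 5 rose and 0 fell, where 47.1% of 13062 genes tested were called, 3073 higher and 3082 lower. The rises were in *Srebf2*, both *Insig* genes, *Hmgcs1* and *Lss*, while *Idi1* and *Sqle* were not called. DESeq2 also called 5 of 7.

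*Insig1*, whose product retains the SREBP-2 precursor in the endoplasmic reticulum, measured 99.9, 79.5 and 119 CPM in the control livers and 213, 233 and 309 in the restricted livers. The groups were far apart, with the lowest restricted liver well above the highest control. Its log2 fold change was 1.34 ± 0.19 (SE, n = 3 and 3; edgeR adjusted p = 0.00149), higher in 3 of 3 livers. *Insig2*, its homologue, measured 75.7, 94.0 and 77.6 CPM in controls and 237, 155 and 189 under restriction. Again no restricted liver reached down to the controls, and replicate 1 was the highest. The log2 fold change of *Insig2* was 1.23 ± 0.16 (SE; edgeR adjusted p = 0.00127). *Srebf2* measured 31.2, 33.1 and 31.3 CPM in controls and 38.6, 35.8 and 38.3 under restriction. The groups did not overlap but lay close together. Its log2 fold change of 0.24 ± 0.07 (SE; edgeR adjusted p = 0.0228) was no longer called without control replicate 1 (0.0783), control replicate 3 (0.0635) or restricted replicate 3 (0.0557), within 0.0386 to 0.0783 over the 6 libraries left out in turn.

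Among the enzymes, *Hmgcs1*, which makes HMG-CoA for the first steps of the pathway, measured 51.4, 51.5 and 39.7 CPM in controls and 70.6, 77.4 and 94.0 under restriction. All restricted livers were above all controls, at a log2 fold change of 0.76 ± 0.14 (SE; edgeR adjusted p = 0.00443). *Lss*, which closes squalene epoxide into lanosterol, the first sterol, measured 22.9, 23.5 and 28.8 CPM in controls and 34.8, 36.3 and 45.9 under restriction. These groups did not overlap either, at a log2 fold change of 0.64 ± 0.14 (SE; edgeR adjusted p = 0.00769). *Idi1*, which isomerises the isoprenoid building block, measured 37.9, 57.0 and 47.5 CPM in controls and 63.4, 59.2 and 44.2 under restriction, with overlap of the groups (log2 fold change 0.23, edgeR adjusted p = 0.332). *Sqle*, which oxidises squalene, measured 8.87, 12.6 and 12.1 CPM in controls and 12.5, 10.2 and 9.78 under restriction, also overlapping (log2 fold change -0.05, edgeR adjusted p = 0.823).

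The ZT12 WT livers of the time series, where diet and library batch coincide, gave other values for most of these genes. There 2 of 7 were called, where 38.1% of all genes were: *Insig2* at 1.74 (edgeR adjusted p = 0.00115) and *Srebf2*, now lower under restriction, at -0.28 (edgeR adjusted p = 0.0299). In those livers the log2 fold change was -0.04 for *Insig1* (edgeR adjusted p = 0.88), -0.18 for *Hmgcs1* (edgeR adjusted p = 0.616) and 0.06 for *Lss* (edgeR adjusted p = 0.694). Marker sums differed between these livers without overlap: hepatocyte markers summed to 89902.2, 106050, 90045 and 100363 CPM on the control diet and 172426, 174940 and 178502 CPM under restriction, endothelial markers to 67.6, 55.7, 57.4 and 62.8 CPM and 104, 98.7 and 121 CPM, and stellate markers to 113, 90.7, 77.6 and 112 CPM and 205, 252 and 229 CPM. Exocrine pancreas markers reached 882 CPM in restricted replicate 3 and at most 1.70 CPM in the other livers. The part of these markers was not tested. The rise of *Insig2* is the one diet call found in both sets of livers with its direction unchanged. Levels in the control livers also differed between the experiments: *Insig1* averaged 99.4 ± 19.6 CPM (SD) in the diet experiment, 315 ± 79.2 in the time series and 608 ± 107 in the corticosterone experiment, and *Sqle* 11.2 ± 2.04, 58.5 ± 18.3 and 78.6 ± 6.12. TMM was set within each experiment. With CPM by total counts the means were 104, 291 and 628 for *Insig1* and 11.7, 54.0 and 81.3 for *Sqle*, in that order.

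Markers of liver cells moved with the diet too. Hepatocyte markers summed to 92584, 94983 and 97836 CPM in controls and 161870, 162824 and 164184 CPM in restricted livers. Endothelial markers summed to 83.1, 112 and 114 CPM in controls and 132, 134 and 158 CPM in restricted livers, and stellate markers to 192, 203 and 161 CPM in controls and 273, 241 and 276 CPM in restricted livers. Lymphocyte, neutrophil (*Ly6g* at 0 in all 6 livers) and adipocyte markers (*Plin1* and *Lep* at 0 in these livers) were lower under restriction, at sums of at most 0.909, 0.273 and 0.0567 CPM. Their part in the diet differences was not tested, and in bulk liver fewer cells of a type and less RNA per cell cannot be told apart.

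Other genes of the pathway were followed as fixed lists. Of 15 other synthesis enzymes, 4 rose and 2 fell (median log2 fold change -0.00218, with 0.64 for the 7 genes and -1.8e-06 over all genes, of which 47.1% were called). Among those with the lowest p were *Pmvk* at 0.87 ± 0.09 (SE; edgeR adjusted p = 0.000509), *Tm7sf2* at -0.68 (0.00126) and *Acat2* at 0.41 (0.00727). Of 4 measured genes of SREBP processing, *Mbtps1*, a protease that cleaves SREBP, rose (0.25), while its partner protease *Mbtps2* (-0.41) and *Srebf1*, which encodes SREBP-1 (-0.50), fell. All 7 uptake and transport genes were called: *Scarb1*, the HDL receptor (0.51), *Lipa*, the lysosomal acid lipase (0.22), *Npc1* (0.43) and *Npc2* (0.48), which carry cholesterol out of lysosomes, and *Soat2*, which esterifies it (0.67), rose, and *Lrp1* (-0.22) and *Stard4* (-0.66) fell. Of 7 genes of the LXR pathway and efflux, *Mylip*, which targets lipoprotein receptors for degradation (1.13), and *Abcg8*, part of a biliary sterol pump (0.27), rose. The medians of these 3 lists were -0.31, 0.43 and -0.13, in that order. Single libraries moved these counts. Enzymes ran from 4 without restricted replicate 2 to 8 without restricted replicate 1. Uptake and transport genes ran from 4 without control replicate 3 to 6 without restricted replicate 1, so no such fit called all 7. SREBP processing had 1 gene without restricted replicate 2 or any 1 control and 2 without restricted replicate 3. The LXR list had 1 without control replicate 1 or 3. Between 34% and 48.5% of all genes were called in these fits.

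The corticosterone experiment asks what raised corticosterone does without restricting food. Of the 7 genes, *Insig1* fell and 0 rose, where 8.11% of 11523 genes tested were called, and DESeq2 also called 1. *Insig1* measured 634, 699 and 490.2 CPM after vehicle and 253, 230.2 and 266 after CORT. Every CORT liver lay below every vehicle liver, by a wide gap. The log2 fold change was -1.28 ± 0.15 (SE, n = 3 and 3; edgeR adjusted p = 0.0047), lower in 3 of 3 livers and called without any 1 library (0.00742 to 0.0262). In the diet experiment the same gene rose, so caloric restriction and CORT went with opposite differences in *Insig1* at ZT12, in livers of separate experiments, while in the ZT12 livers of the time series *Insig1* stood at -0.04 between the diets (edgeR adjusted p = 0.88). Whether those effects differ was not tested.

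In the other 6 genes CORT replicate 2 was the highest CORT liver. *Srebf2* measured 54.7, 56.6 and 54.5 CPM after vehicle and 41.6, 62.3 and 41.7 after CORT, and *Lss* 92.2, 96.8 and 81.8 and 46.1, 99.2 and 54.7. In both genes replicate 2 was above the vehicle livers and the other CORT livers were below them. *Insig2* measured 91.4, 101 and 101 CPM after vehicle and 55.9, 186 and 42.6 after CORT, and *Hmgcs1* 82.3, 146 and 146 and 63.1, 216 and 72.3. The same liver was the highest of all 6 here, as it was for *Idi1*, at 135, 159 and 137 CPM after vehicle and 113, 263 and 118 after CORT. *Sqle* measured 72.4, 84.7 and 78.7 CPM and 51.6, 81.9 and 64.9, with replicate 2 inside the vehicle range. With all libraries the edgeR adjusted p was 0.527 for *Srebf2*, 0.358 for *Lss*, 0.972 for *Insig2*, 0.933 for *Hmgcs1*, 0.743 for *Idi1* and 0.395 for *Sqle*.

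Without CORT replicate 2, 4 of 7 genes were called, all lower, where 8.59% of all genes were. *Insig1* stood at -1.23 (edgeR adjusted p = 0.00999), *Srebf2* at -0.41 (0.0296, 0.0296 to 0.832 over the 6 libraries left out), *Lss* at -0.84 (0.0124, 0.0124 to 0.653) and *Insig2* at -0.99 (0.0111, 0.0111 to 0.991). Whether *Srebf2*, *Lss* and *Insig2* were lower after CORT thus rests on 1 library, whereas the fall of *Insig1* does not. In the lists, 1 of 15 other enzymes fell, *Mvd*, which makes isopentenyl pyrophosphate (-1.89, edgeR adjusted p = 0.00967), and 0 of 4 genes of SREBP processing were called by edgeR (1 at an unadjusted p under 0.05, 0 by DESeq2). *Soat2* rose among 7 uptake and transport genes (0.74, edgeR adjusted p = 0.0125), and *Abcg5* (1.31, 0.0216) and *Abcg8* (1.82, 0.0103), which form a biliary sterol pump, rose among 7 of the LXR pathway and efflux. These 4 genes are named after their values were seen. The list medians were 0.07, 0.13, 0.31 and 0.26, in that order, with -0.19 for the 7 genes and -0.00668 over all genes, of which 8.11% were called. Without CORT replicate 2 the counts were 3 enzymes and 2 uptake genes. The LXR count was 1 without CORT replicate 1 or 3 and 0 without vehicle replicate 2, where 3.78%, 3.36% and 1.76% of all genes were called, in that order.

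Of 10 marker lists, 5 had no overlap between vehicle and CORT livers. Endothelial markers summed to 70.9, 81.9 and 86.9 CPM in vehicle livers and 52.0, 65.1 and 63.2 CPM in CORT livers, and erythrocyte markers to 493, 443 and 554 CPM in vehicle livers and 241, 384 and 218 CPM in CORT livers. Lymphocyte markers were lower and neutrophil and pancreas markers higher after CORT, with sums of at most 2.68 CPM for lymphocytes, 1.82 CPM for neutrophils (*Ly6g* at 0 throughout) and 0.379 CPM for exocrine pancreas (*Prss2*, *Cpa1* and *Pnlip* at 0 throughout). Their part in the fall of *Insig1* was not tested.

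**Figure D1:**
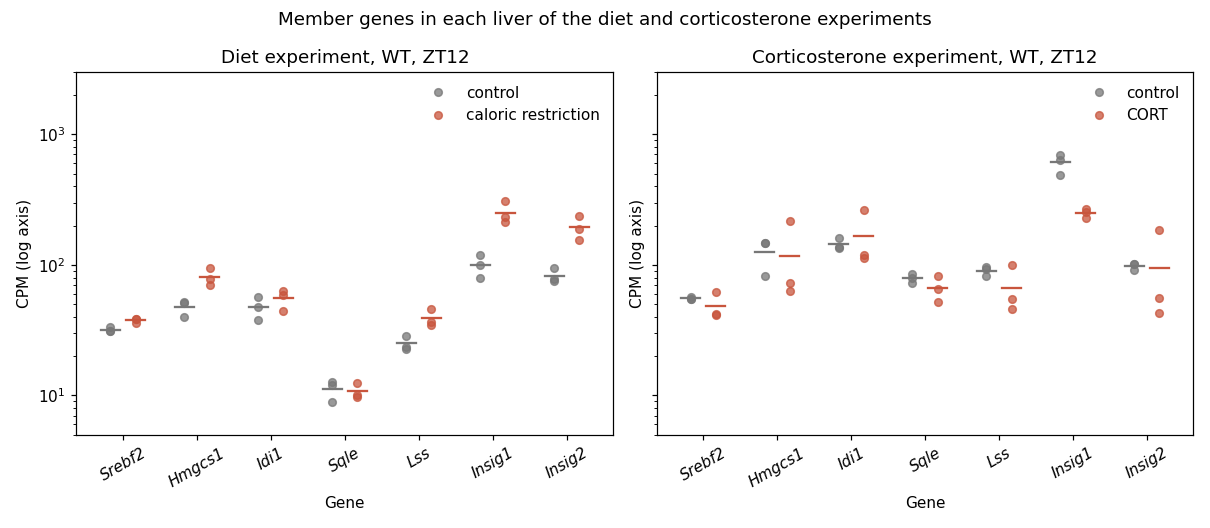
Levels of the 7 genes at ZT12 in the diet experiment and the corticosterone experiment, in TMM-scaled CPM on a log axis, with 1 point per liver and bars for group means. The *Insig1* points of the restricted livers lie above their controls at 213, 233 and 309 CPM, those of the CORT livers below theirs at 253, 230.2 and 266, and CORT replicate 2 is the highest CORT liver in the other 6 genes.

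The receptor's part was measured as the difference between GRLKO and WT livers at each time. On caloric restriction, 9 of 42 tests (7 genes at 6 times) were called by edgeR, 7 lower in GRLKO and 2 higher, and 18 by DESeq2. *Sqle* was lower at ZT0, ZT8 and ZT12, *Lss* lower at ZT8 and ZT16 and higher at ZT12, *Insig1* higher at ZT12 and lower at ZT16, and *Insig2* lower at ZT12. The members called by edgeR at each time, with the percentage of all genes that edgeR called, were 1 of 7 at ZT0 (0.502%), 0 at ZT4 (0.69%), 2 at ZT8 (2.55%), 4 at ZT12 (15.3%), 2 at ZT16 (4.54%) and 0 at ZT20 (1.47%). The share that DESeq2 called is not given. At ZT4, 3 genes had an unadjusted p under 0.05 in edgeR and DESeq2 called 2, and at ZT20 these were 6 and 2. Over all genes, an unadjusted p under 0.05 was found for 1755 of 12025 at ZT4 and 2340 of 12076 at ZT20.

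At ZT12, just before food, the *Insig* genes differed in opposite directions. *Insig1* measured 339, 266 and 309 CPM in WT and 483, 552 and 489 in GRLKO livers. Each GRLKO liver was above each WT liver, at a log2 fold change of 0.73 ± 0.11 (SE, n = 3 and 3; edgeR adjusted p = 0.00735). *Insig2* measured 213, 123 and 176 CPM in WT and 55.0, 65.2 and 77.9 in GRLKO livers. The GRLKO livers were all lower, and WT replicate 2 was the lowest WT liver, at a log2 fold change of -1.38 ± 0.22 (SE; edgeR adjusted p = 0.00779). *Sqle* measured 62.5, 38.9 and 58.8 CPM in WT and 25.2, 26.5 and 27.7 in GRLKO livers. The GRLKO values were close together and under all WT values, at a log2 fold change of -1.02 ± 0.18 (SE; edgeR adjusted p = 0.0103). *Lss* measured 66.1, 52.6 and 63.2 CPM in WT and 76.5, 82.0 and 79.2 in GRLKO livers. The GRLKO livers were higher without overlap, at a log2 fold change of 0.38 ± 0.10 (SE; edgeR adjusted p = 0.0472). That call was lost with replicate number as a block (0.125), with no filter on low counts (0.0598), in 1 fit of all libraries of the diet (0.0814), and in 5 of 6 fits with 1 library left out: 0.0831 without GRLKO replicate 1, 0.104 without GRLKO replicate 2, 0.121 without GRLKO replicate 3, 0.101 without WT replicate 2 and 0.104 without WT replicate 3 (range 0.0498 to 0.121 over libraries left out and 0.00951 to 0.125 over the settings). *Srebf2* measured 35.3, 33.6 and 36.6 CPM in WT and 30.3, 38.2 and 31.7 in GRLKO livers, with overlap (log2 fold change -0.08, edgeR adjusted p = 0.641).

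*Hmgcs1* measured 114, 69.0 and 95.9 CPM in WT and 129.6, 147 and 167 in GRLKO livers at ZT12, and *Idi1* 193, 133 and 170.0 and 118, 121 and 139.7. The *Hmgcs1* groups did not overlap, yet the gene was not called (log2 fold change 0.66, edgeR adjusted p = 0.0548), except by DESeq2 and in 1 fit of all libraries of the diet (0.00309 to 0.0962 over the settings), nor was *Idi1* (-0.40, 0.118). *Hmgcs1* was called without WT replicate 1 (0.84, edgeR adjusted p = 0.034, 0.034 to 0.159 over libraries left out) and *Idi1* without WT replicate 2 (-0.53, 0.043, 0.043 to 0.266). In this comparison 1 library stood apart in pancreas markers: exocrine pancreas markers summed to 0, 0.139 and 882 CPM in WT replicates 1, 2 and 3, and 0.115, 0.169 and 0.0609 in GRLKO livers, where *Prss2*, *Cpa1*, *Amy2a5* and *Pnlip* were at 0. Without WT replicate 3, *Sqle* was at -0.95 (edgeR adjusted p = 0.0381, 0.00174 to 0.0404 over libraries left out), *Insig1* at 0.74 (0.0316, 0.00995 to 0.0316), *Insig2* at -1.36 (0.0287, 0.00435 to 0.0335) and *Lss* at 0.41 (0.104).

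Marker sums also differed between the genotypes at ZT12. Hepatocyte markers summed to 172426, 174940 and 178502 CPM in WT and 130136, 138537 and 119938 CPM in GRLKO livers. Kupffer and myeloid markers summed to 39.8, 66.9 and 49.2 CPM in WT and 111, 89.0 and 144 CPM in GRLKO livers, and endothelial markers to 104, 98.7 and 121 CPM in WT and 148, 127 and 141 CPM in GRLKO. Cholangiocyte markers (*Epcam* at 0 throughout) were higher in GRLKO by little, at 26.3, 31.1 and 28.9 CPM in WT and 31.4, 32.3 and 31.6 CPM in GRLKO. Their part in the differences of the 7 genes was not tested.

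In the lists at ZT12, 4 of 15 other enzymes were called, 2 higher and 2 lower (median log2 fold change -0.03, with -0.08 for the 7 genes and -0.00410 over all genes, of which 15.3% were called). *Sc5d*, a late enzyme of the pathway, rose from 188 ± 19.9 to 583 ± 20.2 CPM (SD; log2 fold change 1.63, edgeR adjusted p = 0.00021), and *Acat2* by 0.47 (0.0473). *Fdps*, which makes farnesyl pyrophosphate (-1.16, edgeR adjusted p = 0.0101), and *Nsdhl* (-0.68, 0.0215) fell. *Srebf1* rose (1.60, edgeR adjusted p = 0.00789) as 1 of 4 genes of SREBP processing. Of 7 uptake and transport genes, *Lipa* (0.85), *Npc2* (0.38), *Stard4* (0.44) and *Soat2* (0.40) rose and *Scarb1* fell (-0.76, edgeR adjusted p = 0.00392). Of 7 genes of the LXR pathway and efflux, 0 were called by edgeR, 0 had an unadjusted p under 0.05 and DESeq2 called 0. The medians of these 3 lists were 0.04, 0.38 and 0.18 on the log2 scale. The enzyme count was 2 without WT replicate 3 or any 1 GRLKO liver and 3 without WT replicate 1. The uptake count was 4 without GRLKO replicate 2, 3 without GRLKO replicate 3 or WT replicate 1, and 2 without WT replicate 2 or 3. The shares of all genes called in these fits are not given. Without WT replicate 3, the library with pancreas markers, edgeR still called *Sc5d* (1.71), *Fdps* (-1.14) and *Srebf1* (1.58).

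At ZT16, 4 h after food, the difference in *Insig1* had the opposite sign. *Insig1* measured 765, 793 and 718 CPM in WT and 379, 443 and 443 in GRLKO livers. All GRLKO livers were far below all WT livers, at a log2 fold change of -0.84 ± 0.09 (SE, n = 3 and 3; edgeR adjusted p = 0.00376). *Lss* measured 124, 124 and 131 CPM in WT and 86.2, 84.7 and 103 in GRLKO livers, also without overlap, at a log2 fold change of -0.46 ± 0.09 (SE; edgeR adjusted p = 0.0401). The *Lss* call was lost with replicate number as a block (0.074), in 1 fit of all libraries of the diet (0.0698) and in 5 of 6 fits with 1 library left out: 0.124 without GRLKO replicate 1, 0.12 without GRLKO replicate 2, 0.117 without WT replicate 1, 0.0944 without WT replicate 2 and 0.114 without WT replicate 3 (range 0.0391 to 0.124 over libraries left out and 0.000807 to 0.074 over the settings). *Srebf2* measured 63.3, 57.0 and 52.0 CPM and 45.2, 49.5 and 46.2 at this time, lower in every GRLKO liver but not called (log2 fold change -0.28, edgeR adjusted p = 0.159). Hepatocyte markers summed to 139056, 147174 and 140454 CPM in WT and 127775, 105209 and 132954 CPM in GRLKO livers, and stellate markers to 193, 283 and 210.5 CPM in WT and 192, 192 and 163 CPM in GRLKO. Lymphocyte markers were at most 2.08 CPM and higher in GRLKO. Their part in these differences was not tested.

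At ZT8, in the light phase, *Sqle* and *Lss* were lower in GRLKO livers. *Sqle* measured 190.2, 129 and 175 CPM in WT and 74.8, 70.0 and 74.1 in GRLKO livers. WT livers varied, yet the lowest, replicate 2, was above all GRLKO livers, at a log2 fold change of -1.17 ± 0.14 (SE, n = 3 and 3; edgeR adjusted p = 0.0101). *Lss* measured 222, 189 and 198 CPM in WT and 129.7, 129 and 113 in GRLKO livers. These did not overlap either, at a log2 fold change of -0.70 ± 0.09 (SE; edgeR adjusted p = 0.0135). Leaving out any 1 GRLKO liver ended both calls, with edgeR adjusted p = 0.0608 without GRLKO replicate 1, 0.0572 without GRLKO replicate 2 and 0.0583 without GRLKO replicate 3 for *Sqle* (range 0.00106 to 0.0608 over 6 libraries) and 0.0686 without GRLKO replicate 1, 0.0596 without GRLKO replicate 2 and 0.0721 without GRLKO replicate 3 for *Lss* (range 0.0169 to 0.0721). *Hmgcs1* at 569.8, 317 and 429 CPM in WT and 263, 302 and 279 in GRLKO livers was not called (-0.64, edgeR adjusted p = 0.16). Nor was *Idi1*, at 569, 359 and 483 and 274, 278 and 232 CPM (-0.84, 0.0522). DESeq2 and 1 fit of all libraries of the diet called both genes, lower in GRLKO (adjusted p over the settings 0.0151 to 0.287 for *Hmgcs1* and 2.13e-05 to 0.108 for *Idi1*), no filter on low counts called *Idi1*, and DESeq2 called *Srebf2* (0.0419 to 0.161). In both, WT replicate 2 was the WT liver nearest to the GRLKO livers, and without it *Hmgcs1* was called at -0.82 (edgeR adjusted p = 0.0345, 0.0345 to 0.393 over libraries left out) and *Idi1* at -1.0 (0.0113, 0.0113 to 0.201). Of the 15 other enzymes, 8 fell and 0 rose at ZT8 (median log2 fold change -0.70, with -0.64 for the 7 genes and 0.000810 over all genes, of which 2.55% were called): *Mvk*, *Pmvk*, *Mvd*, *Fdps*, *Cyp51*, *Nsdhl*, *Hsd17b7* and *Dhcr7*, named after their values were seen. *Fdps* fell by 1.47 on the log2 scale (edgeR adjusted p = 0.00326). The enzyme count was 2 without any 1 GRLKO liver, 5 without WT replicate 3, 7 without WT replicate 1 and 10 without WT replicate 2. The shares of all genes called in these fits are not given. Hepatocyte markers summed to 145061, 121144 and 119541 CPM in WT and 116667, 111874 and 114012 CPM in GRLKO livers, and endothelial markers to 113, 123 and 113 CPM in WT and 142, 137 and 157 CPM in GRLKO. Adipocyte markers (*Plin1* and *Lep* at 0 throughout) were at most 1.27 CPM and higher in GRLKO. Their part was not tested.

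At ZT0, *Sqle* measured 128, 112 and 124 CPM in WT and 80.3, 85.0 and 80.3 in GRLKO livers. The GRLKO livers were all lower and close together, at a log2 fold change of -0.56 ± 0.07 (SE, n = 3 and 3; edgeR adjusted p = 0.0303). The call was lost with replicate number as a block (0.133), in 1 fit of all libraries of the diet (0.0704, 2.47e-08 to 0.133 over the settings) and without any 1 of the 6 libraries: 0.058 without GRLKO replicate 1, 0.13 without GRLKO replicate 2, 0.118 without GRLKO replicate 3, 0.0756 without WT replicate 1, 0.0586 without WT replicate 2 and 0.11 without WT replicate 3. Hepatocyte markers summed to 118713, 121943 and 121467 CPM in WT and 104855, 112098 and 106420 CPM in GRLKO livers at this time, and lymphocyte, neutrophil and adipocyte markers (*Plin1* and *Lep* at 0 throughout) were higher in GRLKO, at sums of at most 6.62, 3.16 and 5.35 CPM. Erythrocyte markers overlapped between the genotypes, at 229.6, 863 and 297 CPM in WT and 436, 2767 and 310.2 CPM in GRLKO livers, where replicate 2 stood apart. The part of these markers was not tested. At ZT4, *Sqle* measured 139.8, 115 and 103 CPM in WT and 74.2, 65.1 and 53.1 in GRLKO livers (-0.90, edgeR adjusted p = 0.0602), and *Idi1* 445, 458 and 426 and 269, 328 and 256 (-0.64, 0.0601). Neither was called by edgeR, while DESeq2 called both, and 1 fit of all libraries of the diet and a fit with no filter on low counts called *Sqle* (adjusted p over the settings 3.6e-06 to 0.0714 for *Sqle* and 2.33e-06 to 0.144 for *Idi1*). At ZT0 DESeq2 also called *Idi1*, lower in GRLKO (0.0139 to 0.343 over the settings). At ZT20, *Srebf2* measured 79.0, 73.2 and 89.4 CPM in WT and 63.2, 50.7 and 53.5 in GRLKO livers, without overlap but not called (-0.52, edgeR adjusted p = 0.0941, 0.00664 to 0.121 over the settings). The DESeq2 calls at ZT20 were *Srebf2*, which 1 fit of all libraries of the diet also called, and *Insig1*, and the edgeR log2 fold change of *Insig1* there was 0.34 (edgeR adjusted p = 0.128).

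On the control diet, 1 of 42 tests was called by edgeR and 2 by DESeq2. The members called by edgeR were 0 of 7 at ZT0 (0.536% of all genes), 0 at ZT4 (0.195%), 1 at ZT8 (1.43%), 0 at ZT12 (2.08%), 0 at ZT16 (1.98%) and 0 at ZT20 (0.42%). At ZT0, ZT4, ZT12 and ZT20, 0 members had an unadjusted p under 0.05 in edgeR and DESeq2 called 0. At ZT16 these counts were 3 and 1, where 1950 of 11723 genes tested had an unadjusted p under 0.05. *Idi1* at ZT8 measured 329.5, 370.1, 344 and 299 CPM in WT and 265, 234, 259 and 233 in GRLKO livers. All 4 GRLKO livers were below all 4 WT livers, at a log2 fold change of -0.43 ± 0.07 (SE; edgeR adjusted p = 0.0257). The call was lost with replicate number as a block (0.0986), in 1 fit of all libraries of the diet (0.534) and in 6 of 8 fits with 1 library left out: 0.075 without GRLKO replicate 2, 0.053 without GRLKO replicate 3, 0.0777 without GRLKO replicate 4, 0.079 without WT replicate 1, 0.0642 without WT replicate 2 and 0.0786 without WT replicate 3 (range 0.0154 to 0.079 and 9.4e-06 to 0.534 over the settings). *Lss* at ZT16 measured 82.3, 82.2, 90.1 and 92.3 CPM in WT and 134, 109.8 and 108 in GRLKO livers. The GRLKO livers were all higher, at a log2 fold change of 0.44 ± 0.10 that edgeR did not call and DESeq2 did (SE; edgeR adjusted p = 0.0637, 0.00197 to 0.219 over the settings). At ZT12, *Insig1* measured 429, 294, 244 and 294 CPM in WT and 333, 285, 327 and 635 in GRLKO livers, and *Insig2* 56.7, 65.9, 47.5 and 35.9 and 40.0, 37.2, 76.7 and 38.5, both with overlap (edgeR adjusted p = 0.712 and 0.942). Of the 15 other enzymes, 5 fell at ZT8 (*Pmvk*, *Cyp51*, *Msmo1*, *Nsdhl* and *Hsd17b7*, named after their values were seen, with a median of -0.32, against -0.19 for the 7 genes and -0.000963 over all genes, of which 1.43% were called). That count was 0 without WT replicate 1 or 2, 1 without GRLKO replicate 2 or 4, 2 without WT replicate 3, and 3 without WT replicate 4 or GRLKO replicate 1 or 3. The shares of all genes called in those fits are not given. Adipocyte markers summed to 0, 0, 0 and 1.54 CPM in WT and 19.0, 9.11, 44.3 and 21.0 in GRLKO livers at ZT8, where *Plin1* and *Lep* were at 0 in all 8 livers, and their part was not tested.

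Whether the genotype difference itself differs between the diets was tested as an interaction, in which a shift shared by all libraries of a diet drops out. edgeR called 2 of 42 tests and DESeq2 3. Both edgeR calls were at ZT16, where 2 of 7 members and 0.234% of all genes were called. For *Insig1* the difference of log2 fold changes was -0.92 ± 0.14 (SE; edgeR adjusted p = 0.0145), from -0.84 on caloric restriction and 0.08 on the control diet, where WT livers measured 651, 689.5, 711 and 827 CPM and GRLKO livers 823, 707 and 749.5. For *Lss* it was -0.90 ± 0.13 (SE; edgeR adjusted p = 0.0149), from -0.46 and 0.44, so that GRLKO livers were below WT under restriction and above them on the control diet. At ZT16 on the control diet, hepatocyte markers summed to 101063, 102425, 99976 and 94323.3 CPM in WT and 88212.7, 77140.6 and 90249.5 CPM in GRLKO livers, and endothelial markers to 78.3, 82.8, 78.2 and 80.6 CPM in WT and 76.2, 55.7 and 71.2 CPM in GRLKO. Adipocyte markers (*Plin1* at 0 throughout) were higher in GRLKO, at sums of at most 5.08 CPM. Exocrine pancreas markers summed to 0.186, 583, 4.39 and 0.294 CPM in those WT livers and at most 0.412 CPM in GRLKO. Without WT replicate 2 on the control diet, the one at 583 CPM, edgeR still called *Insig1* (-0.90) and *Lss* (-0.87), and the part of these markers was not tested. The *Lss* call was lost with replicate number as a block (0.0652, 2.42e-07 to 0.0652 over the settings) and without WT replicate 3 on caloric restriction (0.0536, 0.00989 to 0.0536 over 13 libraries left out). Members called by edgeR were 0 of 7 at ZT0 (0% of all genes), ZT4 (0%), ZT8 (0.081%), ZT12 (1.01%) and ZT20 (0%). In that order, 2, 3, 4, 1 and 1 had an unadjusted p under 0.05 and DESeq2 called 0, 0, 0, 1 and 0. Over all genes, 1266 of 12455, 746 of 12362 and 1043 of 12345 had an unadjusted p under 0.05 at ZT0, ZT4 and ZT8. At ZT12 and ZT20, 1742 of 12225 and 878 of 12599 did. The DESeq2 call at ZT12 was *Insig2*, at -1.27 in edgeR (adjusted p = 0.158, 0.0378 to 0.187 over the settings, DESeq2 included).

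Levels over the day were followed in each genotype and diet. Values are means ± SD of 3 livers under restriction and of 3 or 4 on the control diet, and neighbours in the order of levels are said to overlap where their livers do.

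*Srebf2*, the SREBP-2 gene, averaged 77.9 ± 3.92 CPM at ZT0, 65.2 ± 5.69 at ZT4, 66.2 ± 2.66 at ZT8, 35.2 ± 1.49 at ZT12, 57.4 ± 5.67 at ZT16 and 80.5 ± 8.19 at ZT20 in restricted WT livers. Its means in restricted GRLKO livers were 65.0 ± 8.31 CPM at ZT0, 53.4 ± 14.5 at ZT4, 52.6 ± 4.02 at ZT8, 33.4 ± 4.22 at ZT12, 47.0 ± 2.28 at ZT16 and 55.8 ± 6.56 at ZT20. The order of *Srebf2* in restricted WT livers was from high to low ZT20, ZT0, ZT8, ZT4, ZT16 and ZT12, where 3 of 5 pairs of neighbours overlapped and ZT0 stood clear of ZT8 and ZT16 stood clear of ZT12. Under restriction, GRLKO livers ordered *Srebf2* from high to low ZT0, ZT20, ZT4, ZT8, ZT16 and ZT12, where 4 of 5 pairs of neighbours overlapped and ZT16 stood clear of ZT12. WT means of *Srebf2* on the control diet were 61.9 ± 8.21 CPM at ZT0, 61.5 ± 4.07 at ZT4, 53.0 ± 2.41 at ZT8, 43.0 ± 3.38 at ZT12, 55.9 ± 1.91 at ZT16 and 69.7 ± 5.82 at ZT20. GRLKO means of *Srebf2* on that diet were 73.4 ± 1.24 CPM at ZT0, 63.7 ± 2.94 at ZT4, 51.9 ± 7.68 at ZT8, 41.3 ± 6.13 at ZT12, 48.9 ± 3.85 at ZT16 and 63.4 ± 8.26 at ZT20. For *Srebf2* the order on the control diet was, in WT, from high to low ZT20, ZT0, ZT4, ZT16, ZT8 and ZT12, where 4 of 5 pairs of neighbours overlapped and ZT8 stood clear of ZT12. It was, for *Srebf2* in GRLKO, from high to low ZT0, ZT4, ZT20, ZT8, ZT16 and ZT12, where 4 of 5 pairs of neighbours overlapped and ZT0 stood clear of ZT4. In all 4 sets *Srebf2* was lowest at ZT12, before food, and highest at ZT20 or ZT0, with peak-to-trough ratios of 2.29 (WT) and 1.95 (GRLKO) under restriction and 1.62 and 1.77 on the control diet.

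*Insig1*, an SREBP-2 target whose product holds the precursor back, averaged 464 ± 44.3 CPM at ZT0, 563 ± 89.1 at ZT4, 589 ± 111 at ZT8, 305 ± 36.9 at ZT12, 758 ± 37.8 at ZT16 and 572 ± 27.9 at ZT20 in restricted WT livers. In restricted GRLKO livers *Insig1* averaged 488 ± 58.1 CPM at ZT0, 589.6 ± 26.2 at ZT4, 646 ± 43.2 at ZT8, 508 ± 38.2 at ZT12, 422 ± 36.6 at ZT16 and 719 ± 67.8 at ZT20. The order of *Insig1* in restricted WT livers was from high to low ZT16, ZT8, ZT20, ZT4, ZT0 and ZT12, where 3 of 5 pairs of neighbours overlapped and ZT16 stood clear of ZT8 and ZT0 stood clear of ZT12. Restricted GRLKO livers ordered *Insig1* from high to low ZT20, ZT8, ZT4, ZT12, ZT0 and ZT16, where 4 of 5 pairs of neighbours overlapped and ZT4 stood clear of ZT12. Control-diet WT livers had *Insig1* means of 587 ± 159 CPM at ZT0, 485 ± 61.1 at ZT4, 402 ± 49.0 at ZT8, 315 ± 79.2 at ZT12, 719.8 ± 75.7 at ZT16 and 520.4 ± 125 at ZT20. GRLKO means of *Insig1* on that diet were 538 ± 114 CPM at ZT0, 555 ± 18.5 at ZT4, 369.6 ± 35.5 at ZT8, 395 ± 161 at ZT12, 759.8 ± 58.5 at ZT16 and 576 ± 40.5 at ZT20. For *Insig1* the order on the control diet was, in WT, from high to low ZT16, ZT0, ZT20, ZT4, ZT8 and ZT12, where all 5 pairs of neighbours overlapped. It was, for *Insig1* in GRLKO, from high to low ZT16, ZT20, ZT4, ZT0, ZT12 and ZT8, where 4 of 5 pairs of neighbours overlapped and ZT16 stood clear of ZT20. WT livers of both diets were lowest at ZT12 and highest at ZT16, right after food, with peak-to-trough ratios of 2.49 under restriction and 2.28 on the control diet. Restricted GRLKO livers were lowest at ZT16 (ratio 1.71) and those on the control diet at ZT8 (ratio 2.06).

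*Insig2*, its homologue, averaged 276 ± 28.8 CPM at ZT0, 223 ± 43.0 at ZT4, 65.9 ± 7.07 at ZT8, 171 ± 45.5 at ZT12, 177 ± 16.4 at ZT16 and 343 ± 23.4 at ZT20 in restricted WT livers. Its means in restricted GRLKO livers were 231 ± 53.5 CPM at ZT0, 209 ± 31.0 at ZT4, 57.1 ± 2.09 at ZT8, 66.0 ± 11.5 at ZT12, 182 ± 37.9 at ZT16 and 250.1 ± 54.1 at ZT20. The order of *Insig2* in restricted WT livers was from high to low ZT20, ZT0, ZT4, ZT16, ZT12 and ZT8, where 2 of 5 pairs of neighbours overlapped and ZT20 stood clear of ZT0, ZT4 stood clear of ZT16 and ZT12 stood clear of ZT8. Under restriction, GRLKO livers ordered *Insig2* from high to low ZT20, ZT0, ZT4, ZT16, ZT12 and ZT8, where 4 of 5 pairs of neighbours overlapped and ZT16 stood clear of ZT12. WT means of *Insig2* on the control diet were 224 ± 37.1 CPM at ZT0, 234 ± 30.7 at ZT4, 99.4 ± 4.49 at ZT8, 51.5 ± 12.8 at ZT12, 108 ± 23.8 at ZT16 and 219 ± 44.9 at ZT20. GRLKO means of *Insig2* on that diet were 249.6 ± 14.0 CPM at ZT0, 221 ± 64.8 at ZT4, 107 ± 12.9 at ZT8, 48.1 ± 19.1 at ZT12, 78.6 ± 14.9 at ZT16 and 208 ± 43.2 at ZT20. For *Insig2* the order on the control diet was, in WT, from high to low ZT4, ZT0, ZT20, ZT16, ZT8 and ZT12, where 3 of 5 pairs of neighbours overlapped and ZT20 stood clear of ZT16 and ZT8 stood clear of ZT12. It was, for *Insig2* in GRLKO, from high to low ZT0, ZT4, ZT20, ZT8, ZT16 and ZT12, where 4 of 5 pairs of neighbours overlapped and ZT20 stood clear of ZT8. Restricted livers of both genotypes were lowest at ZT8 and highest at ZT20 (ratios 5.20 in WT and 4.38 in GRLKO), and livers on the control diet were lowest at ZT12 and highest at ZT4 in WT and ZT0 in GRLKO (ratios 4.54 and 5.19).

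*Hmgcs1*, the HMG-CoA synthase of the cytosol, averaged 829.8 ± 146 CPM at ZT0, 559 ± 30.7 at ZT4, 438 ± 127 at ZT8, 93.1 ± 22.8 at ZT12, 274 ± 48.6 at ZT16 and 814 ± 70.4 at ZT20 in restricted WT livers. In restricted GRLKO livers *Hmgcs1* averaged 727 ± 48.6 CPM at ZT0, 427 ± 72.8 at ZT4, 281 ± 19.6 at ZT8, 148 ± 18.7 at ZT12, 203 ± 38.9 at ZT16 and 762 ± 23.9 at ZT20. The order of *Hmgcs1* in restricted WT livers was from high to low ZT0, ZT20, ZT4, ZT8, ZT16 and ZT12, where 3 of 5 pairs of neighbours overlapped and ZT20 stood clear of ZT4 and ZT16 stood clear of ZT12. Restricted GRLKO livers ordered *Hmgcs1* from high to low ZT20, ZT0, ZT4, ZT8, ZT16 and ZT12, where 2 of 5 pairs of neighbours overlapped and ZT0 stood clear of ZT4, ZT4 stood clear of ZT8 and ZT8 stood clear of ZT16. Control-diet WT livers had *Hmgcs1* means of 533 ± 119 CPM at ZT0, 523 ± 75.5 at ZT4, 324 ± 28.7 at ZT8, 106 ± 32.2 at ZT12, 121 ± 18.7 at ZT16 and 499 ± 110.1 at ZT20. GRLKO means of *Hmgcs1* on that diet were 701 ± 248 CPM at ZT0, 589 ± 106 at ZT4, 283 ± 32.6 at ZT8, 148 ± 58.3 at ZT12, 159 ± 75.6 at ZT16 and 545 ± 85.5 at ZT20. For *Hmgcs1* the order on the control diet was, in WT, from high to low ZT0, ZT4, ZT20, ZT8, ZT16 and ZT12, where 3 of 5 pairs of neighbours overlapped and ZT20 stood clear of ZT8 and ZT8 stood clear of ZT16. It was, for *Hmgcs1* in GRLKO, from high to low ZT0, ZT4, ZT20, ZT8, ZT16 and ZT12, where 3 of 5 pairs of neighbours overlapped and ZT20 stood clear of ZT8 and ZT8 stood clear of ZT16. *Hmgcs1* was lowest at ZT12 in all 4 sets and highest around ZT20 to ZT0, with ratios of 8.91 (WT) and 5.15 (GRLKO) under restriction and 5.03 and 4.75 on the control diet, the largest of the 7 genes in restricted WT livers.

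*Idi1*, the isomerase of isopentenyl pyrophosphate, averaged 506 ± 83.4 CPM at ZT0, 443 ± 15.7 at ZT4, 470.5 ± 106 at ZT8, 165 ± 30.4 at ZT12, 251 ± 82.8 at ZT16 and 549 ± 54.2 at ZT20 in restricted WT livers. Its means in restricted GRLKO livers were 368 ± 32.3 CPM at ZT0, 284 ± 38.7 at ZT4, 262 ± 25.3 at ZT8, 126 ± 12.0 at ZT12, 211 ± 33.4 at ZT16 and 423 ± 54.4 at ZT20. The order of *Idi1* in restricted WT livers was from high to low ZT20, ZT0, ZT8, ZT4, ZT16 and ZT12, where 3 of 5 pairs of neighbours overlapped and ZT4 stood clear of ZT16 and ZT16 stood clear of ZT12. Under restriction, GRLKO livers ordered *Idi1* from high to low ZT20, ZT0, ZT4, ZT8, ZT16 and ZT12, where 3 of 5 pairs of neighbours overlapped and ZT0 stood clear of ZT4 and ZT16 stood clear of ZT12. WT means of *Idi1* on the control diet were 406 ± 74.1 CPM at ZT0, 378 ± 62.7 at ZT4, 336 ± 29.6 at ZT8, 179.8 ± 48.6 at ZT12, 173 ± 29.9 at ZT16 and 409 ± 93.8 at ZT20. GRLKO means of *Idi1* on that diet were 377 ± 90.2 CPM at ZT0, 337 ± 32.4 at ZT4, 248 ± 16.5 at ZT8, 168 ± 64.0 at ZT12, 161 ± 20.7 at ZT16 and 355 ± 33.4 at ZT20. For *Idi1* the order on the control diet was, in WT, from high to low ZT20, ZT0, ZT4, ZT8, ZT12 and ZT16, where 4 of 5 pairs of neighbours overlapped and ZT8 stood clear of ZT12. It was, for *Idi1* in GRLKO, from high to low ZT0, ZT20, ZT4, ZT8, ZT12 and ZT16, where 4 of 5 pairs of neighbours overlapped and ZT4 stood clear of ZT8. The trough was at ZT12 under restriction and at ZT16 on the control diet, with ratios of 3.32 (WT), 3.36 (GRLKO), 2.36 (WT) and 2.35 (GRLKO).

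*Sqle*, squalene epoxidase, averaged 121 ± 8.53 CPM at ZT0, 119 ± 18.7 at ZT4, 165 ± 31.9 at ZT8, 53.4 ± 12.7 at ZT12, 129 ± 20.7 at ZT16 and 174 ± 16.3 at ZT20 in restricted WT livers. In restricted GRLKO livers *Sqle* averaged 81.8 ± 2.70 CPM at ZT0, 64.1 ± 10.6 at ZT4, 73.0 ± 2.62 at ZT8, 26.5 ± 1.29 at ZT12, 96.1 ± 13.3 at ZT16 and 140.2 ± 12.3 at ZT20. The order of *Sqle* in restricted WT livers was from high to low ZT20, ZT8, ZT16, ZT0, ZT4 and ZT12, where 4 of 5 pairs of neighbours overlapped and ZT4 stood clear of ZT12. Restricted GRLKO livers ordered *Sqle* from high to low ZT20, ZT16, ZT0, ZT8, ZT4 and ZT12, where 2 of 5 pairs of neighbours overlapped and ZT20 stood clear of ZT16, ZT0 stood clear of ZT8 and ZT4 stood clear of ZT12. Control-diet WT livers had *Sqle* means of 109.8 ± 30.6 CPM at ZT0, 91.8 ± 5.31 at ZT4, 80.8 ± 8.10 at ZT8, 58.5 ± 18.3 at ZT12, 81.1 ± 18.2 at ZT16 and 139 ± 37.3 at ZT20. GRLKO means of *Sqle* on that diet were 116 ± 25.8 CPM at ZT0, 75.4 ± 16.8 at ZT4, 55.9 ± 17.8 at ZT8, 37.6 ± 18.9 at ZT12, 80.2 ± 33.6 at ZT16 and 125 ± 14.0 at ZT20. For *Sqle* the order on the control diet was, in WT, from high to low ZT20, ZT0, ZT4, ZT16, ZT8 and ZT12, where all 5 pairs of neighbours overlapped. It was, for *Sqle* in GRLKO, from high to low ZT20, ZT0, ZT16, ZT4, ZT8 and ZT12, where all 5 pairs of neighbours overlapped. *Sqle* was lowest at ZT12 and highest at ZT20 in all 4 sets, with ratios of 3.25 (WT) and 5.29 (GRLKO) under restriction and 2.38 and 3.32 on the control diet.

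*Lss*, lanosterol synthase, averaged 159.6 ± 22.4 CPM at ZT0, 154 ± 38.9 at ZT4, 203 ± 17.4 at ZT8, 60.6 ± 7.10 at ZT12, 126 ± 3.96 at ZT16 and 240.3 ± 49.8 at ZT20 in restricted WT livers. Its means in restricted GRLKO livers were 135 ± 4.69 CPM at ZT0, 111 ± 23.7 at ZT4, 124 ± 9.45 at ZT8, 79.2 ± 2.77 at ZT12, 91.4 ± 10.2 at ZT16 and 187 ± 12.2 at ZT20. The order of *Lss* in restricted WT livers was from high to low ZT20, ZT8, ZT0, ZT4, ZT16 and ZT12, where 3 of 5 pairs of neighbours overlapped and ZT8 stood clear of ZT0 and ZT16 stood clear of ZT12. Under restriction, GRLKO livers ordered *Lss* from high to low ZT20, ZT0, ZT8, ZT4, ZT16 and ZT12, where 2 of 5 pairs of neighbours overlapped and ZT20 stood clear of ZT0, ZT0 stood clear of ZT8 and ZT16 stood clear of ZT12. WT means of *Lss* on the control diet were 146 ± 43.7 CPM at ZT0, 114 ± 8.34 at ZT4, 93.2 ± 5.14 at ZT8, 58.6 ± 4.60 at ZT12, 86.7 ± 5.25 at ZT16 and 168 ± 41.4 at ZT20. GRLKO means of *Lss* on that diet were 148 ± 38.0 CPM at ZT0, 113 ± 14.6 at ZT4, 80.8 ± 11.6 at ZT8, 67.1 ± 21.1 at ZT12, 118 ± 14.5 at ZT16 and 173 ± 3.84 at ZT20. For *Lss* the order on the control diet was, in WT, from high to low ZT20, ZT0, ZT4, ZT8, ZT16 and ZT12, where 3 of 5 pairs of neighbours overlapped and ZT4 stood clear of ZT8 and ZT16 stood clear of ZT12. It was, for *Lss* in GRLKO, from high to low ZT20, ZT0, ZT16, ZT4, ZT8 and ZT12, where 4 of 5 pairs of neighbours overlapped and ZT4 stood clear of ZT8. *Lss* was also lowest at ZT12 and highest at ZT20 in all 4 sets, with ratios of 3.97 (WT) and 2.36 (GRLKO) under restriction and 2.86 and 2.58 on the control diet.

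**Figure D2:**
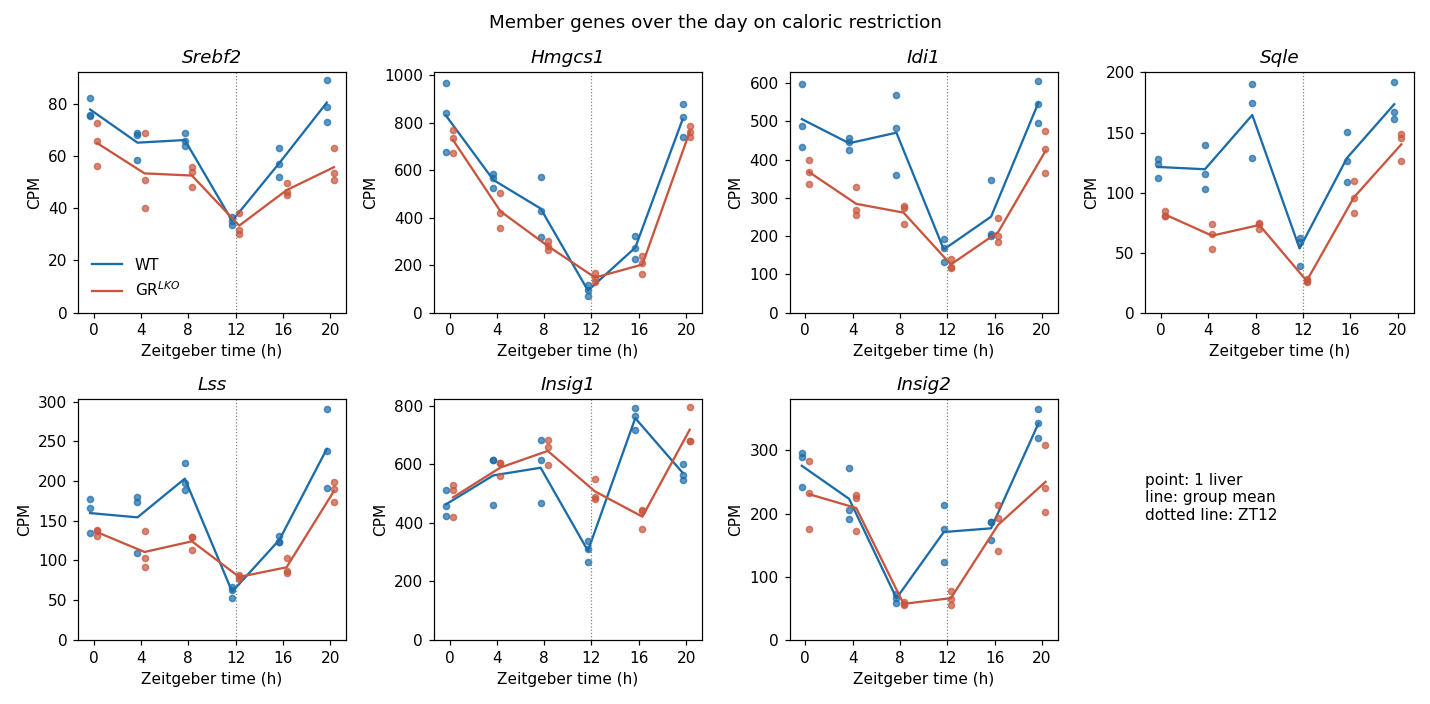
Levels of the 7 genes on caloric restriction in TMM-scaled CPM against Zeitgeber time in hours, with 1 point per liver and lines through group means, WT in blue and GRLKO in red, and a dotted line at ZT12, when food was given. WT *Insig1* goes from 305 ± 36.9 CPM at ZT12 to 758 ± 37.8 at ZT16, while GRLKO *Insig1* has its lowest mean, 422 ± 36.6, at ZT16.

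**Figure D3:**
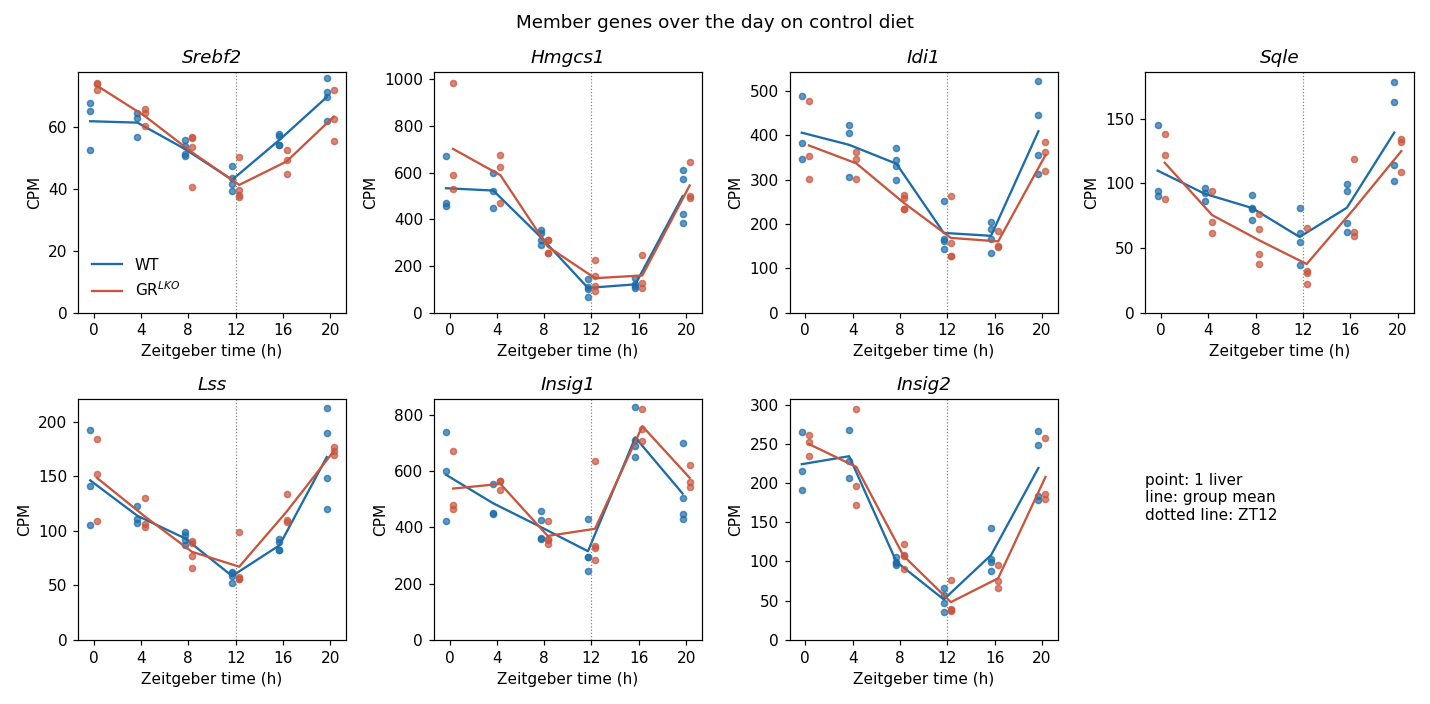
The same plot for livers on the control diet, in TMM-scaled CPM against Zeitgeber time in hours, with WT in blue and GRLKO in red. Here the *Insig1* means of both genotypes are highest at ZT16, at 719.8 ± 75.7 CPM in WT and 759.8 ± 58.5 in GRLKO.

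A 24 h rhythm was tested with JTK_CYCLE, an exact rank test, in each genotype and diet. It called 22 of 28 tests: 4 of 7 genes in restricted WT livers (21.7% of all genes), 6 in restricted GRLKO (19.8%), 6 in WT on the control diet (27.3%) and 6 in GRLKO on the control diet (22.7%). *Insig1* was called in no set, with exact JTK_CYCLE adjusted p = 1, 1, 0.328 and 0.29 in that order, although the edgeR test for any difference among times called it in all 4 and the limma test of the sine and cosine of time called it on the control diet (adjusted p = 0.0263 in WT and 0.0193 in GRLKO, against 0.643 and 0.529 under restriction). Restricted WT livers had calls for *Srebf2* (exact JTK_CYCLE adjusted p = 0.00407), *Hmgcs1* (0.000805), *Idi1* (0.0435) and *Insig2* (0.00954), and none for *Sqle* and *Lss* (1 each), which the edgeR test for any difference among times called (adjusted p = 3.84e-05 and 7.47e-06) and the limma test of the sine and cosine of time did not (0.202 and 0.0682). In the other 3 sets, *Sqle* had 0.0178, 0.0064 and 0.00878, and *Lss* 0.0229, 0.000164 and 0.00532 (exact JTK_CYCLE). The count of 22 depends on the number of livers: it was 12 without replicate 1 of each time, 9 without replicate 2 and 9 without replicate 3. The shares of all genes called in those runs are not given, so these lower counts have no background beside them.

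The difference between rhythms was tested with limma on the sine and cosine of time. Between genotypes, 0 of 7 genes were called on caloric restriction (0.652% of all genes) and 0 of 7 on the control diet (0.366%), with 0 of the 14 tests at an unadjusted p under 0.05 and 0 called by edgeR, so a call in one genotype and not the other, as for *Sqle* and *Lss* under restriction, is not shown to be a difference. Between diets in WT livers, where diet and batch coincide, 1 of 7 genes was called (26.6% of all genes): *Insig2*, with a fitted peak at ZT 23.9 and an amplitude of 1.09 on the control diet and 21.3 and 0.88 under restriction (limma adjusted p = 0.0123). That call was lost without replicate 1 (0.0568), replicate 2 (0.0629) or replicate 3 (0.11) of every time (range 0.0309 to 0.11).

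Food arrives at ZT12, so the step from ZT12 to ZT16 compares livers at the end of the fast with livers in the first hours after food. The dark phase also starts at ZT12, and the paper places the daily corticosterone peak there. Food, darkness and corticosterone cannot be told apart in this step. Over the 4 sets, 14 of 28 tests were called by edgeR, all of them rises. Restricted WT livers had 5 of 7 genes called, where 40% of all genes were. *Insig1* went from 339, 266 and 309 CPM to 765, 793 and 718, and *Hmgcs1* from 114, 69.0 and 95.9 to 274, 225 and 322. All livers at ZT16 were above all at ZT12 in both genes, at log2 fold changes of 1.32 ± 0.11 (SE, n = 3 and 3; edgeR adjusted p = 0.000248) and 1.56 ± 0.20 (0.00132). *Srebf2* (0.71 ± 0.09, edgeR adjusted p = 0.00129), *Sqle* (1.27 ± 0.20, 0.00255) and *Lss* (1.06 ± 0.10, 0.000399) rose too, while *Idi1* (0.61, 0.0766, called by DESeq2, 0.0215 to 0.0839 over the settings) and *Insig2* (0.05, 0.838) were not called by edgeR. *Insig2* measured 213, 123 and 176 CPM at ZT12 and 186, 186 and 158 at ZT16 in these livers, with overlap.

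Restricted GRLKO livers also had 5 of 7 genes called, where 37.8% of all genes were. They were not all the same genes: *Insig2* and *Idi1* rose here, and *Insig1* and *Lss* were not called. *Insig2* went from 55.0, 65.2 and 77.9 CPM to 140.0, 193 and 213, and *Sqle* from 25.2, 26.5 and 27.7 to 83.3, 95.1 and 109.9. Neither gene overlapped between the times, at log2 fold changes of 1.47 ± 0.18 (SE; edgeR adjusted p = 0.000805) and 1.87 ± 0.12 (8.5e-05). *Insig1* went from 483, 552 and 489 CPM to 379, 443 and 443, lower in every liver but not called by edgeR (-0.26, adjusted p = 0.0702, 0.025 to 0.118 over the settings, of which DESeq2 gave the lowest). *Idi1* rose by 0.75 ± 0.13 (edgeR adjusted p = 0.00326), *Srebf2* by 0.50 ± 0.11 (0.00842) and *Hmgcs1* by 0.46 ± 0.15 (0.0478), the last with overlapping livers, and *Lss* was at 0.21 (0.123). The *Srebf2* call was lost without replicate 1 of both times (0.0579) and without replicate 3 of both times (0.0845, 0.0046 to 0.0845 over the 9 fits that left livers out). The *Hmgcs1* call was lost in 7 of those 9 fits: without replicate 2 (0.195) or 3 (0.127) of both times, ZT12 replicate 1 (0.143), 2 (0.119) or 3 (0.0523), and ZT16 replicate 2 (0.119) or 3 (0.161), with a range of 0.0169 to 0.195, and also with RLE size factors (0.0528) and with no filter on low counts (0.0576, 0.0119 to 0.0576 over the settings). The difference of these steps between the genotypes was not tested.

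On the control diet, 4 of 7 genes were called in WT livers, where 13.4% of all genes were: *Insig1* (1.20 ± 0.16, SE; edgeR adjusted p = 0.00328), *Insig2* (1.08 ± 0.20, 0.0103), *Lss* (0.57 ± 0.08, 0.00299) and *Srebf2* (0.38 ± 0.07, 0.00871). *Insig1* went from 429, 294, 244 and 294 CPM to 651, 689.5, 711 and 827 there, with all ZT16 livers above all ZT12 livers. Without replicate 3 of both times, *Srebf2* (0.0626, 0.00843 to 0.0626 over libraries left out) and *Insig2* (0.0623, 0.013 to 0.0623) were not called by edgeR. In GRLKO livers edgeR called 0 of 7, where 9.06% of all genes were, with 4 at an unadjusted p under 0.05 and 1 called by DESeq2. An unadjusted p under 0.05 was found for 2820 of 11753 genes tested. *Insig1* measured 333, 285, 327 and 635 CPM at ZT12 and 823, 707 and 749.5 at ZT16, and *Lss* 57.6, 56.1, 56.1 and 98.8 and 134, 109.8 and 108. In both, ZT12 replicate 4 was far above the other ZT12 livers. With it the log2 fold changes were 0.95 (edgeR adjusted p = 0.0652, 0.0448 to 0.0659 over the settings) and 0.81 (0.0547, 0.00311 to 0.0558), where a replicate block gave a call for *Insig1* and DESeq2 and no filter on low counts for *Lss*. Without it 3 genes were called: *Insig1* at 1.28 (0.00552, 0.00552 to 0.297 over libraries left out), *Lss* at 1.07 (0.00716, 0.00716 to 0.288) and *Sqle* at 1.51 (0.0303, 0.0303 to 0.529). The share of all genes called without this liver is not given, so the count of 3 has no background beside it. *Insig2* was called without ZT12 replicate 3 (1.02, edgeR adjusted p = 0.00925) and without replicate 3 of both times (1.13, 0.0203, 0.00925 to 0.53 over libraries left out). The fits that leave out a library at 1 of both times were chosen after the data were seen.

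Marker sums moved with this step as well. In restricted WT livers, hepatocyte markers summed to 172426, 174940 and 178502 CPM in the ZT12 livers and 139056, 147174 and 140454 CPM in the ZT16 livers, and Kupffer and myeloid markers to 39.8, 66.9 and 49.2 CPM in those at ZT12 and 98.5, 131 and 129 CPM in those at ZT16. Endothelial markers summed to 104, 98.7 and 121 CPM in ZT12 and 122, 144 and 124 CPM in ZT16 livers in the same comparison, with cholangiocyte (*Epcam* at 0) and neutrophil markers (*Ly6g* and *Camp* at 0) higher too (at most 39.1 and 0.764 CPM). In WT livers on the control diet, endothelial markers summed to 67.6, 55.7, 57.4 and 62.8 CPM in ZT12 and 78.3, 82.8, 78.2 and 80.6 CPM in ZT16 livers and stellate markers to 113, 90.7, 77.6 and 112 CPM in ZT12 and 186, 128, 191 and 163 CPM in ZT16 livers. Pancreas markers stood at 882 CPM in restricted WT replicate 3 at ZT12 and at 583 CPM in control-diet WT replicate 2 at ZT16. Without the first, edgeR still called the step of *Insig1* (1.33), *Hmgcs1* (1.58), *Srebf2* (0.74), *Sqle* (1.35) and *Lss* (1.09) under restriction, and without the second that of *Insig1* (1.22), *Insig2* (1.16), *Lss* (0.60) and *Srebf2* (0.40) on the control diet. In restricted GRLKO livers, cholangiocyte (*Epcam* at 0), lymphocyte and neutrophil markers (*Ly6g* at 0) were higher at ZT16, at sums of at most 41.9, 2.08 and 0.945 CPM. In control-diet GRLKO livers, lymphocyte markers (*Cd3e* at 0 in every ZT16 liver) were lower at ZT16, at sums of at most 1.21 CPM. The part of these markers in the steps was not tested.

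The courses of the genes were compared over the 12 groups of a diet (6 times in 2 genotypes). Pearson correlations of mean log2 CPM over these groups lay between 0.684 and 0.948 for the 10 pairs of *Srebf2* and the 4 enzymes under restriction and between 0.689 and 0.952 on the control diet. *Insig2* had 0.287 to 0.532 with the same 5 genes under restriction and 0.831 to 0.964 on the control diet, and *Insig1* had 0.365 to 0.613 and 0.0725 to 0.618. Between *Insig1* and *Insig2* the values were -0.0812 under restriction and 0.439 on the control diet. The groups of a diet share a library batch and a daily cycle, so these values describe shared time courses and are given without a test.

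By the mean correlation over both diets (12 groups each, 12624 genes), the genes with the time course most like *Srebf2* were *Mmab* (0.920), *Dhcr7* (0.906) and *Lamtor1* (0.901). For *Insig1* they were *Fasn* (0.785), *Tgfb3* (0.761) and *Mfsd12* (0.757), and for *Insig2* *Clpx* (0.962), *Mpzl1* (0.961) and *Tars* (0.957). *Hmgcs1* had *Smagp* (0.968), *Rdh11* (0.965) and *Fdft1* (0.960) as its nearest genes, and *Idi1* had *Cyp51* (0.978), *Rdh11* (0.969) and *Mvk* (0.953). Nearest to *Sqle* were *Sgsm1* (0.916), *Dhcr7* (0.916) and *Fdps* (0.903), and nearest to *Lss* *Mvd* (0.936), *Mmab* (0.921) and *Pmvk* (0.919).

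The 250 bases before the gene starts were searched for motifs in the RefSeq promoters (GRCm38.p6), which held entries for 6 of the 7 genes and none for *Sqle*. Both strands were searched for TCACNCCAC (reverse complement GTGGNGTGA), a spelling of the sterol regulatory element, for CCAAT, which the opposite strand reads as ATTGG, and for CACGTG, an E-box that reads the same on both strands, and the matches found do not overlap each other. Of 32851 promoters of this length, 1.05% held the first, 33.8% the second and 6.02% the third. The first was found in *Hmgcs1* alone, as TCACCCCAC 137 bases before the start, and the E-box in *Insig1* alone, 101 bases before the start. CCAAT matched in all 6 genes: 1 time in *Srebf2*, *Lss* and *Insig1*, 2 times in *Idi1* and 3 times in *Hmgcs1* and in the first of 3 *Insig2* entries, with 0 in its other entries. A match is a description of letters, not a bound site. The promoters of *Srebf2* (chr15:82147019-82147268), *Hmgcs1* (chr13:119690101-119690350), *Lss* (chr10:76531355-76531604) and *Insig1* (chr5:28071162-28071411), all on the plus strand, are printed because these genes carry the ZT12 to ZT16 step in restricted WT livers, with every match in capitals.
Srebf2: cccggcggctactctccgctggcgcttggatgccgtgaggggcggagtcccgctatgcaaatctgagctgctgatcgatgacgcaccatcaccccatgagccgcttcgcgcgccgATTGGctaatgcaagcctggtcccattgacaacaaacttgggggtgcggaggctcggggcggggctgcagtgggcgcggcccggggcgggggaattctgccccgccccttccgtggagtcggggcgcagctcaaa
Hmgcs1: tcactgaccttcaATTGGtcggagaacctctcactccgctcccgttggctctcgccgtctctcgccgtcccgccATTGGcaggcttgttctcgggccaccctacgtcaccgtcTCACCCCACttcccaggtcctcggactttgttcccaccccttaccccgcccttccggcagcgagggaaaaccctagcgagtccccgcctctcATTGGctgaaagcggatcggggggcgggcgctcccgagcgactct
Lss: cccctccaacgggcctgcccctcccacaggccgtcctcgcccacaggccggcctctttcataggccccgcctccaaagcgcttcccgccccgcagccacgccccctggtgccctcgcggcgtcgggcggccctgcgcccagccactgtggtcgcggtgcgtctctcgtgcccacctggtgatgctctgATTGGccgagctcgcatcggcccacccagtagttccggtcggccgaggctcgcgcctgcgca
Insig1: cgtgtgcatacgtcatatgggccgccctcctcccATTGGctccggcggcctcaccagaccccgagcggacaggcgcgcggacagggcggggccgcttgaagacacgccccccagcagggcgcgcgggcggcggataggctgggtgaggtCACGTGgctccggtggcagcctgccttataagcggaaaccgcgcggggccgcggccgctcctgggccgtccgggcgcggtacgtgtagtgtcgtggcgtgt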

How the data were processed

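Livers were sequenced by the authors, who per the labels and methods checked reads with FastQC and MultiQC, quantified them with Salmon against mm10 and summed them per gene with tximport. The deposited values are estimated counts per gene in 4 tables, which were rounded to whole numbers. A deposited table of log2-scale VST values of the corticosterone experiment was not used here. Of 27654 gene IDs, 27244 had a symbol, and the 410 without one held 0.107% of counts. Depth ran from 10057544 to 39492146 counts per library. Libraries were grouped by their labels into 28 groups, and p-values measure the spread between mice.

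Each comparison was fitted on its own libraries with the edgeR 4.0.16 quasi-likelihood F test in R 4.3.3, with TMM scaling, filterByExpr (minimum count 10), Benjamini-Hochberg adjustment over all genes tested and a threshold of 0.05. Levels are CPM, with a prior count of 2 added before taking log2. Rhythms used JTK_CYCLE (24 h period, 6 phases, exact null) on VST values of DESeq2 1.42.0, and their differences limma 3.58.1 on the sine and cosine of time. The fits were tested on simulated data. Alternatives were DESeq2, RLE size factors, no filter, replicate number as a block, 1 fit per diet, replicates 1 to 3 only, other rhythm tests, CPM by total counts, and libraries left out. Of replicate pairs, 0 of 102 were alike within counting noise (chi-square per gene at least 10.9).

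The members and lists were chosen with earlier results of these data known. Named genes are every member, the 4 enzymes of the list with the lowest p in the diet experiment and in GRLKO against WT on caloric restriction at ZT12, every gene of the other pathway lists called in either, and for each member the 3 genes with the highest correlation of group means, averaged over both diets. Some pathway genes named for CORT and for genotype at ZT8 lie outside this rule and were named after their values were seen. *Spring1*, the remaining gene of the 5 of SREBP processing, is not analysed here. A gene that this rule names is not reported here.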

Additional observations from a re-analysis of the deposited data

Results flagged for a closer look

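In groups of 4 livers, 3 of 42 tests of a member set 1 liver far from the other 3, where chance flags about 1 in 20 groups. All 3 were GRLKO livers on the control diet at ZT12: replicate 4 with *Lss* at 98.8 CPM and *Insig1* at 635 CPM, and replicate 3 with *Insig2* at 76.7 CPM. With the main edgeR settings, leaving out 1 of these livers gave calls of the ZT12 to ZT16 step in that group. Some other settings called *Insig1* or *Lss* with all livers kept. Groups of 3 livers were not tested in this way.

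The genotype difference at ZT16 differed between the diets by the edgeR interaction test, by -0.90 on the log2 scale for *Lss* and -0.92 for *Insig1*. For *Lss* the call was lost with replicate number as a block (edgeR adjusted p = 0.0652) and without restricted WT replicate 3 (0.0536). The rhythm of *Insig2* in WT livers differed between the diets (limma adjusted p = 0.0123, and 0.0107 by edgeR). Diet and library batch cannot be told apart there. The limma call was lost without replicate 1 (0.0568), replicate 2 (0.0629) or replicate 3 (0.11) of every time.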

How the results depend on the processing

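Counts of member calls moved with some settings, and the cause was not tested. The ZT12 libraries of the time series gave 2 diet calls in place of 5. There *Srebf2* was called at -0.28, opposite to the diet experiment, and *Hmgcs1* at -0.18 and *Insig1* at -0.0405 were not called. DESeq2 gave 18 calls for genotype under restriction in place of 9 and 2 on the control diet in place of 1, where 1 fit of all libraries of the diet gave 0. With libraries left out, the counts ran from 1 to 4 for CORT, 4 to 9 for genotype under restriction, 0 to 1 on the control diet, 1 to 2 for the interaction, 9 to 22 for rhythms and 0 to 1 for differences between rhythms.

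Replicate number did not pair the livers: in 0 of 18 comparisons was every pair's correlation over 0.1 (-0.123 to 0.114). As a block it gave 5 calls for diet, 1 for CORT, 6 for genotype under restriction, 0 on the control diet, 1 for the interaction and 15 for the step from ZT12 to ZT16, against 5, 1, 9, 1, 2 and 14 without it.

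Of all 2261 comparisons of a member value with its alternative, 79 changed sign with a call in neither fit. Of 167 log2 fold changes with a call in either fit under other settings, 128 kept their direction and side of the threshold. A call was lost in 13 and gained in 23, and 3 changed sign, of which *Srebf2* was called. Of 274 with libraries left out, these were 219, 43, 12 and 0. The counts of 167 and 274 leave out the rhythm tests and the tests of differences between rhythms. There, leaving out libraries ended further calls, and other rhythm tests gave further ones. Of 196 group levels, 178 moved by less than 1 SD with CPM by total counts, the largest change being 13.4%. With 3 or 4 livers a group, differences that missed the threshold may still exist.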
